A study of Mus musculus with 17 samples.

Results

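Rab GTPases were measured in bulk RNA-seq libraries of macrophages from the mouse synovium, the membrane that lines joints. Members were the genes of the deposited count table whose symbol is Rab followed by a number and at most 1 letter and 1 further digit. This gave 55 genes of 22859, all annotated as protein coding. The table held 17 libraries in 6 groups, with 3 sorted subsets (LYVE1+CX3CR1+ cells, MHCII+CD11c- cells and MHCII+CD11c+ cells) taken from control mice and from mice given immune complexes (IC). IC were ovalbumin bound by rabbit antibodies to it, injected into a vein 8 h before collection. There were 3 libraries a group, but 2 of MHCII+CD11c+ macrophages from IC mice. All mice were adults by the study's methods, their ages not given per library, and all, controls included, were labelled Fcgr2b-KO, a knockout of the inhibitory receptor for immunoglobulin G, so no group had the receptor intact. Labels name the subsets Lyve1, IAIE (MHC class II) and CD11c, and the sort followed collagenase digestion of the dissected knee synovium. Titles of the control libraries say Healthy and name no vehicle injection. The study's legends count mice for wild-type libraries of the same subsets, and whether each library used here came from 1 mouse or from pooled mice is not given in the sources used here.

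Rab proteins are small GTPases that act as membrane switches. Bound to GTP they sit on the membrane of a given compartment and recruit effectors that move, tether or fuse vesicles. Guanine nucleotide exchange factors (GEFs) turn them on, GTPase-activating proteins (GAPs) turn them off, and escort proteins and prenyl transferases place them on membranes. Macrophages use Rab5 and its relatives on early endosomes and young phagosomes, Rab7 on late endosomes and lysosomes, Rab11 and Rab14 in recycling, and Rab1, Rab2 and Rab6 between the endoplasmic reticulum (ER) and the Golgi.

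Of the 55 members, 45 had enough counts to be tested and 10 did not. Those 10 were Rab19, Rab25, Rab27b, Rab33a, Rab36, Rab37, Rab39b, Rab3b, Rab40b and Rab42, which lay between 0 and 13.4 CPM in every library. CPM are counts divided by library size and scaled to a common total, with library sizes adjusted by the trimmed mean of M-values (TMM). By known role, 14 members belonged to the ER and Golgi (11 tested), 7 to the early endosome and phagosome (7 tested), 7 to the late endosome and lysosome (5 tested), 7 to recycling (6 tested), 10 to exocytosis and the cell surface (8 tested), 6 to lysosome-related organelles (5 tested) and 4 to other roles (3 tested).

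Libraries held 2301913 to 7248939 counts, and 3 counts, taken as the floor, equalled 0.414 to 1.30 CPM. The gates could be seen in the counts, with Lyve1 at 1955 ± 334 CPM in LYVE1+CX3CR1+ controls, 852 ± 242 in MHCII+CD11c- controls and 146 ± 205 in MHCII+CD11c+ controls (SD, n = 3 each). Counts were assigned to Fcgr2b in every library, at 69.3 to 248 CPM, and since the table counts whole genes this does not check the deletion. Markers of other cells differed between groups. The sum of 7 neutrophil markers was 459, 78.8 and 264 CPM in MHCII+CD11c+ controls, 249, 77.9 and 1.67 in MHCII+CD11c- controls, and at most 19.2 in any of the other 11 libraries. The sum of 5 dendritic cell markers was 83.0 to 147 CPM in MHCII+CD11c+ controls and 11.3 to 14.9 in LYVE1+CX3CR1+ controls (Xcr1 and Clec9a averaged 1.86 and 4.55 CPM in the former), and that of 6 macrophage markers was 1430 to 2236 and 5339 to 7405. Fibroblast, endothelial, mast cell and red cell sums stayed under 116 CPM in every library, and B cell, T and NK cell and muscle sums under 23.5. Only 1 of the 5 T and NK cell markers, Cd3d, was among the counted genes, so these cells were hardly covered. In bulk RNA, fewer cells of a type and less RNA per cell cannot be told apart.

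Promoter sequences of 4 members are shown because these genes are 4 of the 5 whose difference between subsets, described further on, held in all alternatives tried. Each line gives the 250 bases before the RefSeq transcription start on build GRCm38.p6, 5′ to 3′ on the strand of the gene. Rab11a lies at chr9:64737757-64738006 (minus), Rab1a at chr11:20201162-20201411 (plus), Rab31 at chr17:65772753-65773002 (minus) and Rab3d at chr9:21918184-21918433 (minus). Capitals mark matches on either strand to 11 motifs. General promoter motifs were the GC box, searched as GGGCGG, the box named for its letters CCAAT, and the TATA box, searched as TATAAA. Motifs of transcription factor families were the E-box, searched as CACGTG, the site of ETS factors, searched as CCGGAAG, the core of PU.1 sites, searched as GAGGAAG, and the AP-1 site, searched as TGANTCA. The MAF motif was searched as TGCTGA, the NF-kB motif as GGGANTTCC, the cyclic AMP response element as TGACGTCA, and the glucocorticoid receptor (GR) motif as AGAACA.
Rab11a: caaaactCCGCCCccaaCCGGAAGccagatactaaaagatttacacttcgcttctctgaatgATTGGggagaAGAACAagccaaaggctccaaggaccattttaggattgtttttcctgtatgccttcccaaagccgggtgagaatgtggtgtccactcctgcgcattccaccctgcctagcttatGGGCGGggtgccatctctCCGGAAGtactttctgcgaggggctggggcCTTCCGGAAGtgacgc
Rab1a: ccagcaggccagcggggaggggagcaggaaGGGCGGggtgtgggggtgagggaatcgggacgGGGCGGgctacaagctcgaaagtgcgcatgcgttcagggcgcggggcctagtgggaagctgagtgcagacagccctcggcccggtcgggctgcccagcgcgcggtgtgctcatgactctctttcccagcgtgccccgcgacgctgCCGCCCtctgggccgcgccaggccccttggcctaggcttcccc
Rab31: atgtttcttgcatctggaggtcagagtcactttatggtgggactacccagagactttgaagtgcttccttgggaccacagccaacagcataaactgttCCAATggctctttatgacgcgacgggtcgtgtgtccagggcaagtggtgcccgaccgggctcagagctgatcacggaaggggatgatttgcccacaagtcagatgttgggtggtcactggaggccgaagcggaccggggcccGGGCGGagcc
Rab3d: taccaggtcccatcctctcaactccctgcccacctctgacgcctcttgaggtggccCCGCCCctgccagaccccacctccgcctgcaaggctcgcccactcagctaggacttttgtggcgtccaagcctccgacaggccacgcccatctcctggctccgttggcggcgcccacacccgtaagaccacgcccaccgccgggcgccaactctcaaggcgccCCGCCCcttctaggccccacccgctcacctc

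The GC box was found in these 4 promoters, 2 times in Rab11a, 3 times in Rab1a, 1 time in Rab31 and 2 times in Rab3d. Rab11a also held 4 ETS matches, of which the last pair overlap on opposite strands, 1 CCAAT box and 1 GR motif, and Rab31 held 1 CCAAT box. Of the 44 members with an entry, 33 (75.0%) had a GC box in at least 1 promoter, beside 35.4% of all genes with an entry. Among tested genes the shares were 81.1% of 37 Rab genes and 61.6% of 10441 genes. The CCAAT box was in 56.8% of tested Rab genes and 40.1% of tested genes, and the TATA box in 2.70% and 8.38%. NF-kB letters were in 0 of the 37 and in 2.26% of tested genes, and the other motifs in 2.70% to 16.2% of the 37. Median GC content was 60.8% in the 53 Rab promoters and 52.4% in all 32851. The promoters of Rab3d, a gene lower in LYVE1+CX3CR1+ macrophages, and Rab1a, a gene higher there, thus held the same single kind of motif. Rab7b, Rab18, Rab2a, Rab26, Rab27b, Rab30, Rab36, Rab37, Rab38, Rab44 and Rab4a had no entry.

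Levels of different genes were compared as CPM per kilobase of exon, averaged over the 6 groups. The highest were Rab7 at 104.6, the late endosome GTPase, Rab5c at 91.0, an early endosome isoform, Rab31 at 75.2, a Rab22-related GTPase of early endosomes and the trans-Golgi, Rab8b at 60.5, a GTPase of exocytosis, and Rab1a at 58.8, which drives ER-to-Golgi transport. Close isoforms differed in level per kilobase, with Rab5a at 14.7, Rab5b at 17.1 and Rab5c at 91.0, and with Rab1b at 36.9 beside Rab1a at 58.8. Rab11b, at 13.2 to 16.3 per kilobase in controls, was below Rab11a, at 24.5 to 58.2. In CPM it was below Rab11a in LYVE1+CX3CR1+ controls (100 and 174) but above it in MHCII+CD11c- (82.9 and 79.1) and MHCII+CD11c+ controls (81.0 and 73.4). Division was by all annotated exon bases of a gene, 6130 for Rab11b and 2992 for Rab11a, so orders per kilobase depend on that length. Reads of some members may be shared with other genes, since 11.2% of the 50-base words of Rab7 also occur in other transcripts (its pseudogene Rab7-ps1 among them), 9.80% of those of Rab5b and 9.47% of those of Rab11b.

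**Figure D1:**
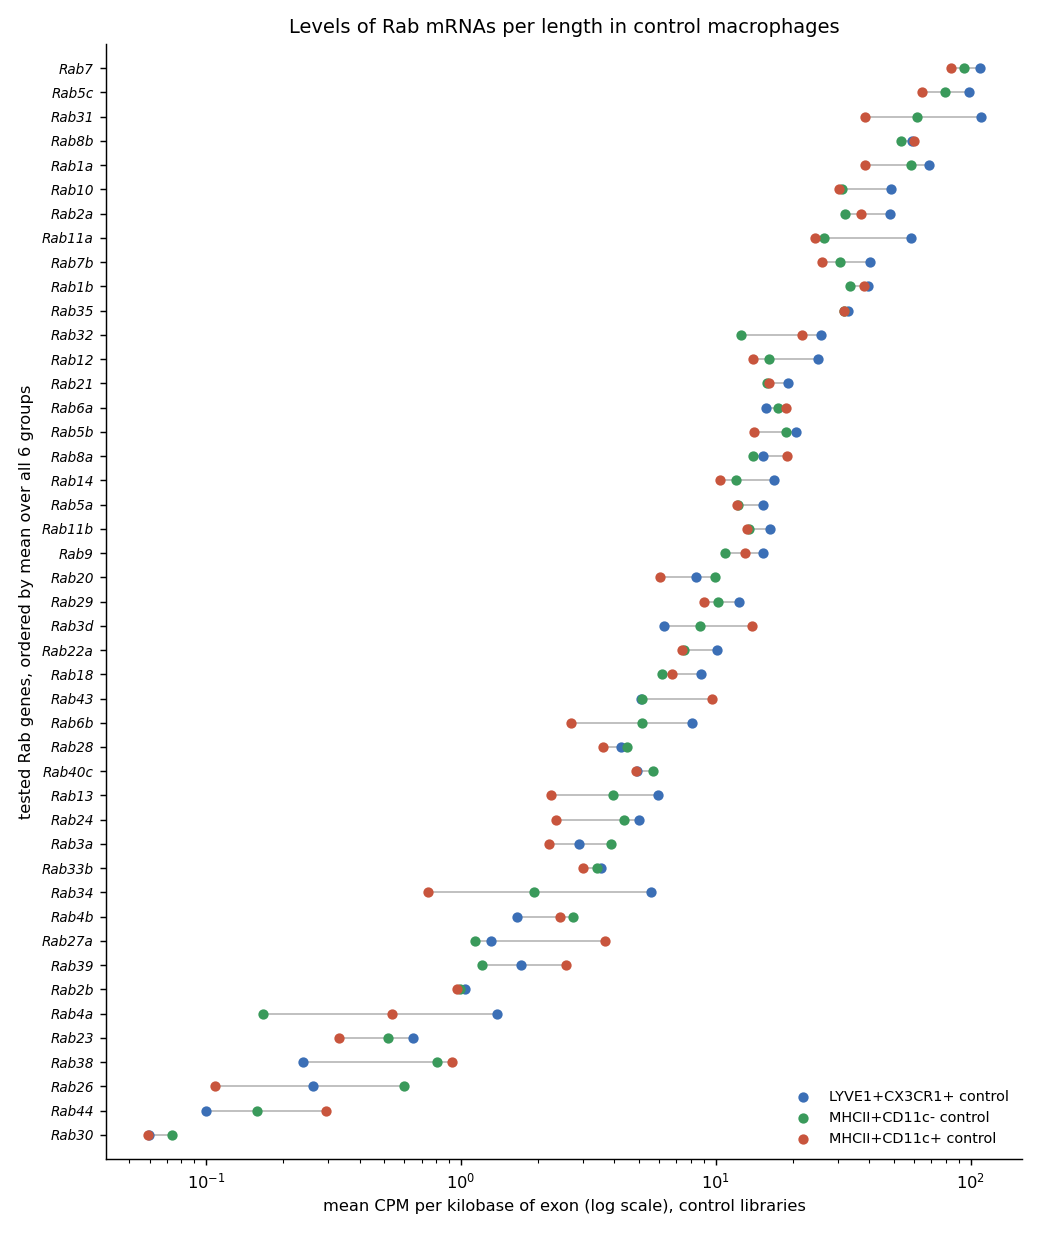
Mean level of each of the 45 tested Rab genes in the 3 control groups (n = 3 libraries each), as CPM per kilobase of exon on a log axis, with genes ordered by their mean over all 6 groups. Rab7, Rab5c and Rab31 stand at the top, and the blue points of LYVE1+CX3CR1+ macrophages lie right of the red points of MHCII+CD11c+ macrophages for 35 genes.

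Together the Rab genes took a larger share of all counts in LYVE1+CX3CR1+ controls (0.332% to 0.379%) than in MHCII+CD11c- (0.266% to 0.283%) and MHCII+CD11c+ controls (0.247% to 0.264%). Their summed level was 3496, 3290 and 3829 CPM, 2697, 2904 and 2563 CPM, and 2469, 2746 and 2400 CPM in the 3 subsets. LYVE1+CX3CR1+ libraries thus lay above all libraries of both MHCII+ subsets, which overlapped each other. Without Rab31 the means were 3121, 2487 and 2391 CPM, in the same order. Per gene, the median log2 difference of the 45 tested members was 0.37 between LYVE1+CX3CR1+ and MHCII+CD11c+ controls, beside 0.05 over all 15272 tested genes, with 35 members above 0 and 10 below. Against MHCII+CD11c- controls it was 0.23, beside 0.00 over all genes, with 33 above 0. These medians stayed above 0 in every alternative, at 0.22 to 0.45 and 0.12 to 0.31.

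Most calls came from the comparison of LYVE1+CX3CR1+ with MHCII+CD11c+ macrophages of control mice. Called means an adjusted p under 0.05 in edgeR's quasi-likelihood test over all tested genes. Of 45 members, 12 (26.7%) were called, beside 15.2% of all tested genes. LYVE1+CX3CR1+ macrophages had more of 10 members, Rab11a, Rab1a, Rab31, Rab14, Rab6b, Rab7b, Rab12, Rab5c, Rab10 and Rab34 (background for this direction 7.83%), and less of 2, Rab3d and Rab43 (background 7.4%). By role these were 2 of 6 tested recycling genes, 4 of 11 of the ER and Golgi, 2 of 7 of the early endosome, 1 of 5 of the late endosome, 3 of 8 of exocytosis, and none of 5 of lysosome-related organelles or of 3 with other roles. Leaving out 1 library at a time gave 6 to 10 calls of members, beside 1591 to 2481 over all genes. Of members, 6 were called without LYVE1+CX3CR1+ control replicate 1 or 3, and 7 without MHCII+CD11c+ control replicate 3. Over all genes these 3 fits gave 1624, 1591 and 1738 calls.

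**Figure D2:**
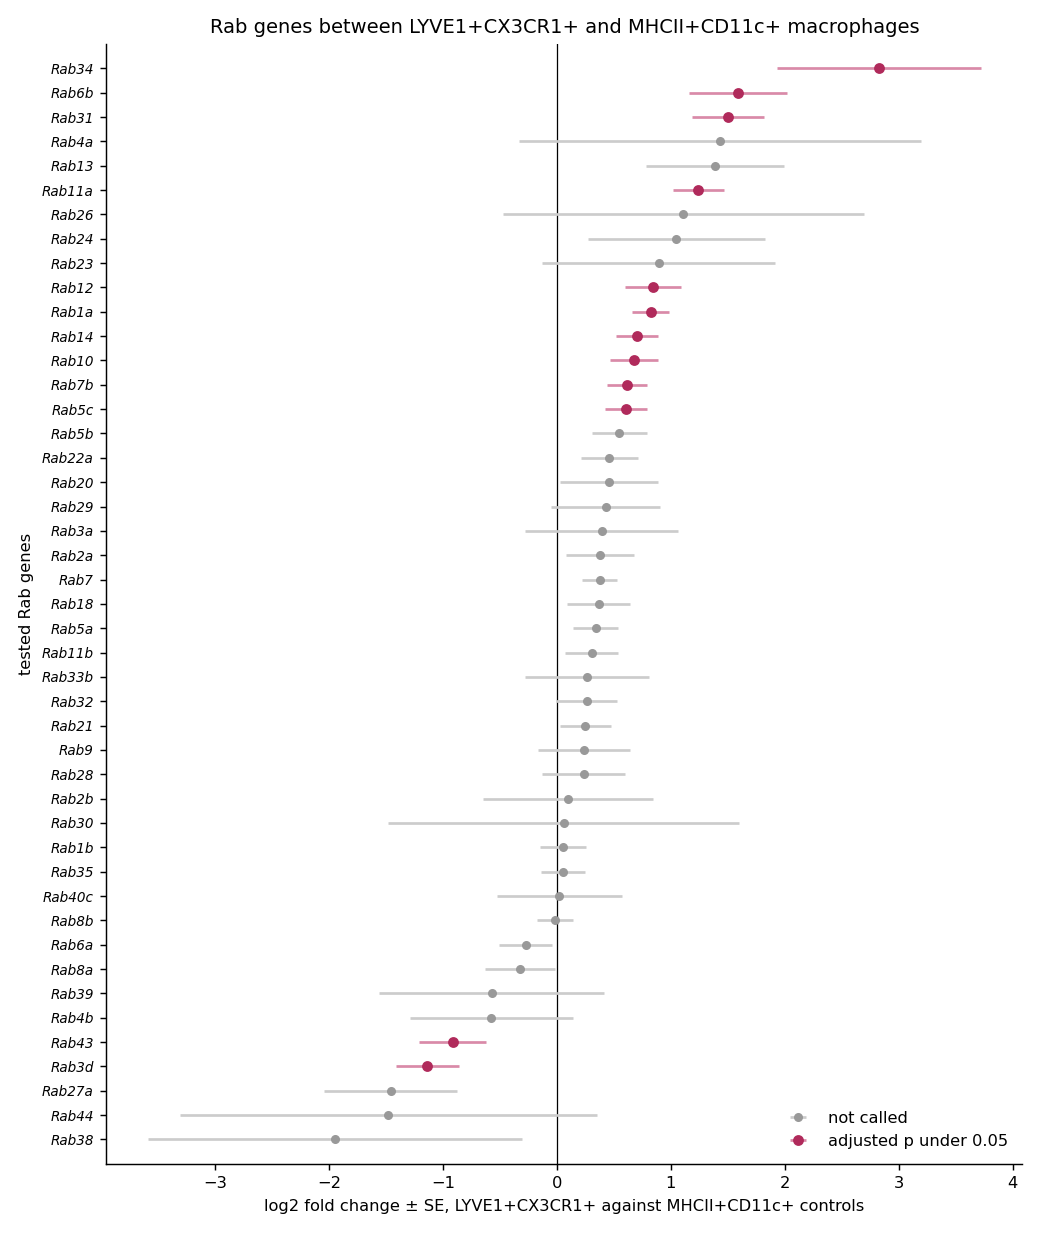
Log2 fold change ± SE of the 45 tested Rab genes between LYVE1+CX3CR1+ and MHCII+CD11c+ controls (n = 3 libraries each), called genes in red. The 10 called genes on the right run from Rab5c at 0.61 to Rab34 at 2.83, and Rab43 and Rab3d are the 2 called genes on the left.

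Rab11a had the lowest p-value of the members, and 2 of 6 tested recycling genes were called. Rab11a, the GTPase of the recycling endosome (chromosome 9, 64715299 to 64737758, minus strand), was at 172, 177 and 173 CPM in LYVE1+CX3CR1+ controls, 59.1, 106 and 72.5 in MHCII+CD11c- controls and 58.3, 101 and 60.9 in MHCII+CD11c+ controls. Every LYVE1+CX3CR1+ library was above every library of both other subsets, which overlapped. The log2 fold change was 1.24 ± 0.23 against MHCII+CD11c+ (SE, adjusted p = 0.000315, 2.36-fold) and 1.14 ± 0.22 against MHCII+CD11c- macrophages (adjusted p = 0.00818). The second call ended without MHCII+CD11c- control replicate 1 (adjusted p = 0.0616) or 3 (0.05748) and with surrogate variables (0.0650). Its close relative Rab11b was at 100 ± 18.8, 82.9 ± 17.6 and 81.0 ± 4.15 CPM (SD, n = 3 each), was not called in any comparison, and its groups overlapped.

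Rab14, which works between endosomes and the Golgi (chromosome 2, 35180205 to 35201120, minus strand), was at 224, 229 and 238 CPM in LYVE1+CX3CR1+ controls, 175, 168 and 146 in MHCII+CD11c- controls and 137, 156 and 131 in MHCII+CD11c+ controls. LYVE1+CX3CR1+ libraries were again the highest without overlap. The log2 fold change against MHCII+CD11c+ macrophages was 0.71 ± 0.18 (SE, adjusted p = 0.00811) and lay between 0.64 and 0.78 without 1 library. Rab35, a recycling GTPase of the plasma membrane, showed almost no difference there (0.05 ± 0.19, adjusted p = 0.902).

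Among early endosome genes, Rab31 had the widest difference of level in CPM (chromosome 17, 65651729 to 65772752, minus strand). It was at 392, 406 and 454 CPM in LYVE1+CX3CR1+ controls, 201, 331 and 171 in MHCII+CD11c- controls and 98.05, 239 and 103 in MHCII+CD11c+ controls. LYVE1+CX3CR1+ libraries did not overlap with the others, and the log2 fold change against MHCII+CD11c+ macrophages was 1.504 ± 0.32 (SE, adjusted p = 0.003, 2.84-fold). The library MHCII+CD11c+ control replicate 2 had the most Rab31 and Rab11a of its group and also the most Lyve1 (382 CPM, beside 29.8 and 25.3). Without it, the log2 fold changes were 2.05 for Rab31 and 1.55 for Rab11a. Likewise MHCII+CD11c- control replicate 2 had the most Rab31, Rab11a and Lyve1 (1131 CPM, beside 695 and 730) of its group, and the part of Lyve1-rich cells in these values was not tested.

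Rab5c (chromosome 11, 100715009 to 100738215, minus strand) was at 206, 212 and 227 CPM in LYVE1+CX3CR1+ controls and 116, 151 and 156 in MHCII+CD11c+ controls, with 190, 175 and 158 in MHCII+CD11c- controls between them. The 3 subsets did not overlap, and the log2 fold change between the first pair was 0.61 ± 0.18 (SE, adjusted p = 0.0248). Rab5a and Rab5b, the other isoforms of the same early endosome GTPase, were not called (0.34 ± 0.20 and 0.55 ± 0.24, adjusted p = 0.302 and 0.134), and all 7 early endosome genes had values above 0, from 0.25 to 1.504.

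Of the ER and Golgi group, Rab1a (chromosome 11, 20201432 to 20226856, plus strand) was at 253, 226 and 299 CPM in LYVE1+CX3CR1+ controls, 222, 217 and 224 in MHCII+CD11c- controls and 139, 153 and 148 in MHCII+CD11c+ controls. MHCII+CD11c+ libraries were the lowest without overlap. The log2 fold change of LYVE1+CX3CR1+ against MHCII+CD11c+ macrophages was 0.83 ± 0.16 (SE, adjusted p = 0.000807). Rab1b, which shares its function, was at 89.8 ± 10.6 and 86.5 ± 15.5 CPM (SD, n = 3 each) and did not differ beyond its spread (0.06 ± 0.20, adjusted p = 0.903).

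Rab6b, a Golgi isoform best known from neurons (chromosome 9, 103111787 to 103185276, plus strand), was at 46.5, 31.9 and 43.1 CPM in LYVE1+CX3CR1+ controls, 24.5, 21.2 and 31.8 in MHCII+CD11c- controls and 9.78, 12.1 and 18.9 in MHCII+CD11c+ controls. The order of the 3 subsets had no overlap, and the log2 fold change between the ends was 1.59 ± 0.43 (SE, adjusted p = 0.0123). Rab6a, its widely expressed isoform, was at 58.5 ± 4.24, 65.5 ± 10.96 and 70.5 ± 11.5 CPM (SD, n = 3 each) and was not called. Rab34, a Golgi and cilium GTPase (chromosome 11, 78188430 to 78192193, plus strand), was at 14.2, 13.0 and 12.8 CPM in LYVE1+CX3CR1+, 4.91, 5.30 and 3.68 in MHCII+CD11c- and 3.62, 1.67 and 0 in MHCII+CD11c+ controls. Its log2 fold change between the first and the last was 2.83 ± 0.89 (SE, adjusted p = 0.0327), with the lowest libraries near the floor.

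Single libraries decided 7 of the 12 calls, and those of Rab10 and Rab43 also ended with surrogate variables (adjusted p = 0.0703) and without the filter (0.0581), respectively. Without LYVE1+CX3CR1+ control replicate 1, adjusted p rose to 0.0660 for Rab6b, 0.0870 for Rab7b, 0.0767 for Rab12, 0.0756 for Rab5c, 0.0962 for Rab10 and 0.0923 for Rab34. Without replicate 2 of that group, it was 0.0999 for Rab12, 0.0572 for Rab5c, 0.07025 for Rab34 and 0.156 for Rab43, and without replicate 3 it was 0.0544 for Rab6b, 0.0781 for Rab7b, 0.1235 for Rab5c, 0.150 for Rab10, 0.0826 for Rab34 and 0.132 for Rab43. The MHCII+CD11c+ controls decided calls too. Without their replicate 1, adjusted p was 0.0690 for Rab6b, 0.0595 for Rab12, 0.132 for Rab5c and 0.1865 for Rab43, and without replicate 2 it was 0.0616 for Rab10 and 0.08005 for Rab34. Without replicate 3 it was 0.0617 for Rab7b, 0.0779 for Rab12, 0.135 for Rab10, 0.0938 for Rab34 and 0.0665 for Rab43. The calls of Rab11a, Rab1a, Rab31, Rab14 and Rab3d held in 14 of 14 alternatives. Neutrophil and dendritic cell markers were highest in the MHCII+CD11c+ controls of this comparison, and their part in the calls was not tested. Without MHCII+CD11c+ control replicate 1, the library with the most neutrophil markers, 8 members were called, beside 1842 of 15057 tested genes.

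**Figure D3:**
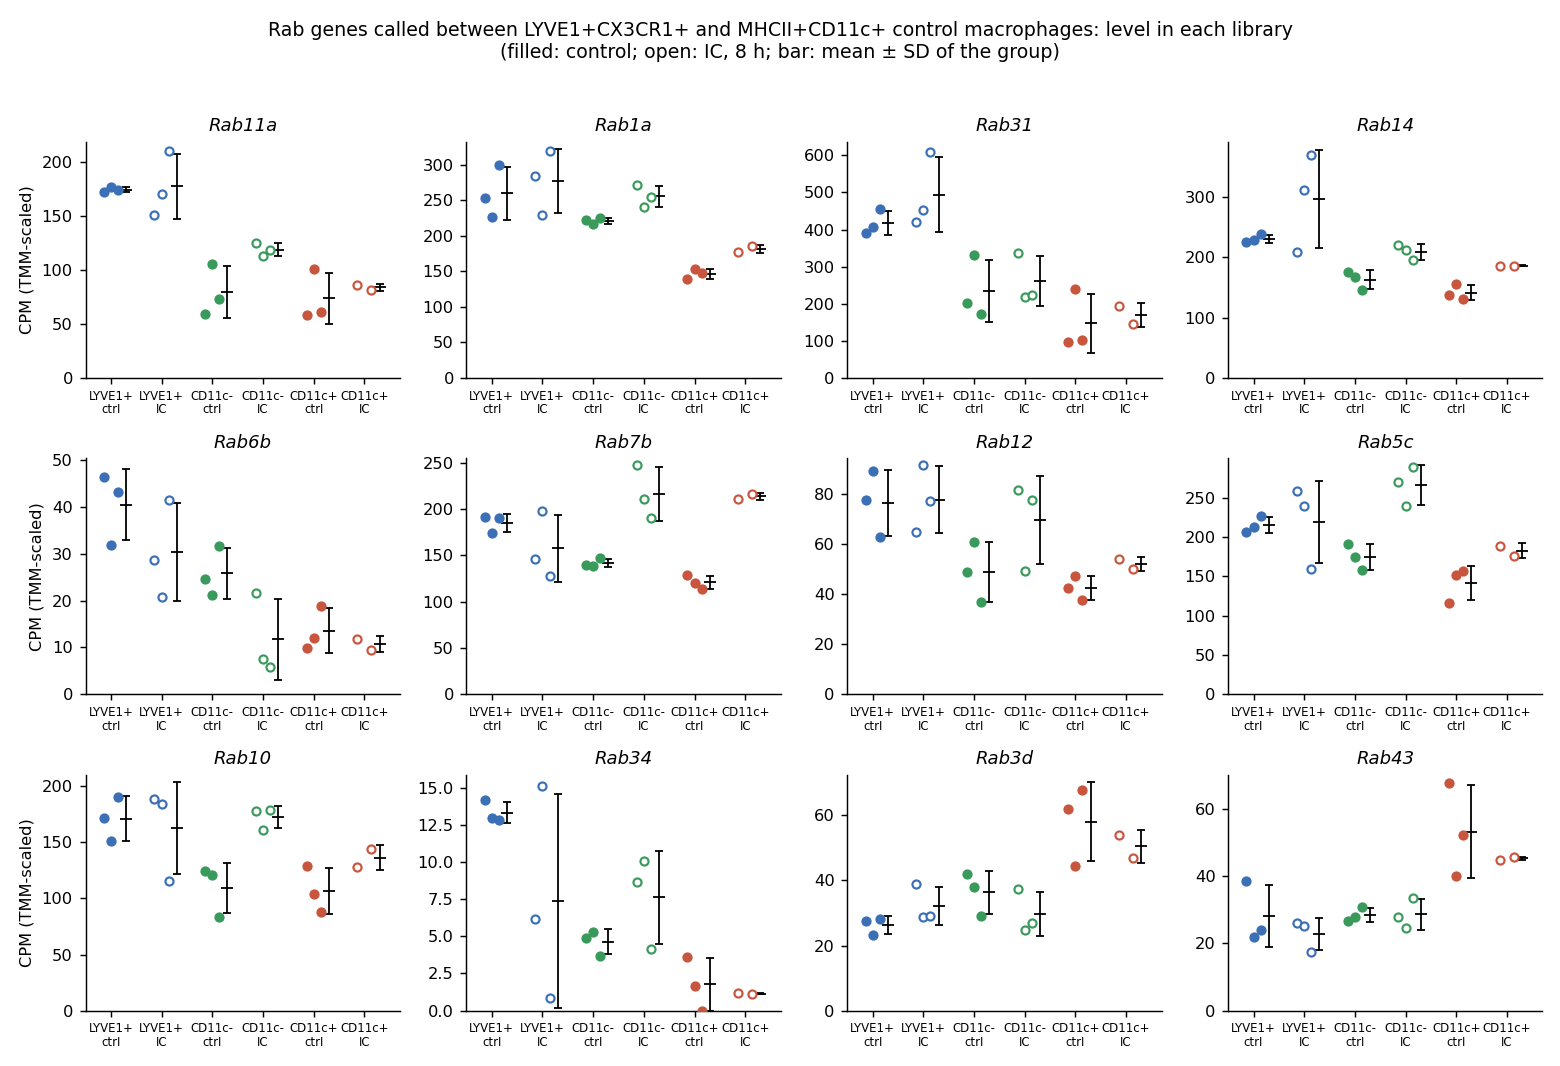
CPM of the 12 Rab genes called in the comparison of LYVE1+CX3CR1+ with MHCII+CD11c+ controls, 1 point per library, for LYVE1+CX3CR1+ (LYVE1+), MHCII+CD11c- (CD11c-) and MHCII+CD11c+ (CD11c+) macrophages, filled for control (ctrl) and open for IC. Black bars give mean ± SD (bars that would pass below 0 end there), and blue filled points lie above red filled points for the first 10 genes and below them for Rab3d and Rab43.

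Exocytosis genes went both ways. Rab12, a GTPase of recycling receptors and secretory granules (chromosome 17, 66494512 to 66519729, minus strand), was at 77.6, 89.2 and 62.9 CPM in LYVE1+CX3CR1+ and 42.5, 47.2 and 37.8 in MHCII+CD11c+ controls (0.84 ± 0.25, SE, adjusted p = 0.0204). Rab10, which carries membrane proteins to the cell surface (chromosome 12, 3247428 to 3309969, minus strand), was at 172, 151 and 190 CPM and 129, 104 and 87.7 CPM (0.68 ± 0.21, SE, adjusted p = 0.0276). Both were without overlap between these groups, and in MHCII+CD11c- controls they were at 48.9 ± 12.1 and 109 ± 22.7 CPM (SD, n = 3).

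Rab3d, a GTPase of regulated secretion (chromosome 9, 21907491 to 21918192, minus strand), had the opposite order. It was at 27.6, 23.2 and 28.1 CPM in LYVE1+CX3CR1+ controls, 42.0, 38.0 and 29.1 in MHCII+CD11c- controls and 61.9, 44.4 and 67.7 in MHCII+CD11c+ controls, with no overlap between the 3 subsets. The log2 fold change of LYVE1+CX3CR1+ against MHCII+CD11c+ macrophages was −1.14 ± 0.27 (SE, adjusted p = 0.00477). Rab43, a Golgi GTPase also known from antigen cross-presentation in dendritic cells (chromosome 6, 87788853 to 87812164, minus strand), was at 38.6, 21.9 and 24.0 CPM in LYVE1+CX3CR1+, 26.7, 27.9 and 30.8 in MHCII+CD11c- and 67.6, 39.9 and 52.2 in MHCII+CD11c+ controls (−0.91 ± 0.29 between the first and the last, SE, adjusted p = 0.036). The highest LYVE1+CX3CR1+ library of Rab43 (38.6 CPM) lay just below the lowest MHCII+CD11c+ library (39.9 CPM). That library, MHCII+CD11c+ control replicate 2, also had the least Rab3d of its group. It had the lowest neutrophil sum (78.8 CPM, beside 459 and 264) and the most Lyve1 of the group too. The part of other cells in these values was not tested. The annotated gene Gm45140 covers 75.4% of the exon length of Rab43 on the same strand, so the source of its reads is uncertain. Rab8b, the most abundant exocytosis member per kilobase, was at 264, 269 and 306 CPM, 242, 269 and 247 CPM, and 290, 321 and 236 CPM in the 3 subsets, which overlapped.

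The late endosome GTPase Rab7 (chromosome 6, 87999106 to 88045270, minus strand) was at 290, 232 and 326 CPM in LYVE1+CX3CR1+ controls, 222, 241 and 273 in MHCII+CD11c- controls and 215, 226 and 213 in MHCII+CD11c+ controls. Its difference between the first and the last group was 0.38 ± 0.15 (SE) with an adjusted p of 0.11, so it was not called. Rab7b, which acts from late endosomes towards the Golgi and has been tied to Toll-like receptor turnover (chromosome 1, 131688695 to 131715439, plus strand), was called in the same comparison. It was at 192, 174 and 190 CPM in LYVE1+CX3CR1+ controls, 140, 139 and 147 in MHCII+CD11c- controls and 128, 120 and 114 in MHCII+CD11c+ controls (0.62 ± 0.17 between the ends, SE, adjusted p = 0.0165), with no overlap between the subsets.

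Set against MHCII+CD11c- controls, LYVE1+CX3CR1+ macrophages differed in a single called member, Rab11a, 1 of 45 members, beside 1.56% of all tested genes (0.34% higher and 1.22% lower in LYVE1+CX3CR1+ macrophages). Only Rab1a was called between MHCII+CD11c+ and MHCII+CD11c- controls, beside 8.66% of all genes (3.67% higher and 4.99% lower in MHCII+CD11c+ macrophages). It was lower in MHCII+CD11c+ macrophages, at −0.59 ± 0.16 (SE, adjusted p = 0.0217). This call held in 7 of 14 alternatives. It ended without replicate 1 or 3 of either group, with adjusted p of 0.0880 and 0.0744 (MHCII+CD11c-) and 0.0810 and 0.0574 (MHCII+CD11c+), and without the filter, with surrogate variables and with only the groups compared. Counts of calls without 1 library ranged from 0 to 2 in the first comparison, beside 96 to 411 over all genes. They were 2 without MHCII+CD11c- control replicate 2, and 0 without replicate 1 or 3. In the second they ranged from 0 to 3, beside 785 to 1450 over all genes. There they were 3 without MHCII+CD11c+ control replicate 2 and 2 without MHCII+CD11c- control replicate 2.

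Lysosome-related organelle genes had no call, and 2 of them, named after their values were seen, came near it. Rab32, a GTPase of melanosomes and of phagosomes that hold bacteria (chromosome 10, 10545002 to 10558265, minus strand), was at 68.3, 46.8 and 66.6 CPM in LYVE1+CX3CR1+, 40.4, 52.4 and 59.4 in MHCII+CD11c+ and 25.6, 36.6 and 25.7 in MHCII+CD11c- controls. MHCII+CD11c- libraries were the lowest without overlap (1.04 ± 0.27 for LYVE1+CX3CR1+ against them, SE, adjusted p = 0.0537), and the difference passed the threshold in 6 of 14 alternatives (adjusted p from 0.00656 to 0.264 over them), without MHCII+CD11c- control replicate 2 among them (0.0307). Rab27a, which docks secretory granules and lysosomes at the plasma membrane (chromosome 9, 73044854 to 73097629, plus strand), was at 13.0, 8.92 and 20.8 CPM in MHCII+CD11c+, 4.72, 2.97 and 7.54 in LYVE1+CX3CR1+ and 4.27, 4.95 and 4.01 in MHCII+CD11c- controls. MHCII+CD11c+ libraries were the highest without overlap (adjusted p = 0.0974 and 0.0845). DESeq2 called Rab27a against both (0.0163 against LYVE1+CX3CR1+ and 0.0119 against MHCII+CD11c- macrophages) and voom against the first (0.0406), and the adjusted p reached 0.3195 and 0.270 over the alternatives.

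The proteins that act on Rabs were examined through 135 genes listed by role, of which 127 were tested. Between LYVE1+CX3CR1+ and MHCII+CD11c+ controls, 40 (31.5%) were called, 33 higher and 7 lower in LYVE1+CX3CR1+ macrophages, beside 15.2% of all genes. They were 15 of 38 GEFs, 6 of 32 GAPs, 19 of 49 effectors and none of 8 chaperone and prenylation genes. The median over the 127 was 0.30, beside 0.05 over all genes. Between MHCII+CD11c+ and MHCII+CD11c- controls 25 (19.7%) were called, 7 higher and 18 lower, beside 8.66% of all genes. Leaving out 1 library gave 26 to 36 calls in the first comparison, the lowest without LYVE1+CX3CR1+ control replicate 3, and 15 to 27 in the second, the lowest without MHCII+CD11c- control replicate 3. Over all genes these ranges were 1591 to 2481 and 785 to 1450 calls. In the second comparison, surrogate variables gave 16 calls of the list and only the groups compared 14, beside 782 of 15272 and 956 of 12384 genes.

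Effectors of Rab11 moved in opposite directions. Rab11fip5 was at 641, 494 and 672 CPM in LYVE1+CX3CR1+, 667, 467 and 580 in MHCII+CD11c- and 118, 172 and 79.0 in MHCII+CD11c+ controls. Rab11fip1 was at 2.21, 9.73 and 3.35 CPM, 41.0, 54.4 and 47.5 CPM, and 450, 373 and 644 CPM. Log2 fold changes of LYVE1+CX3CR1+ against MHCII+CD11c+ macrophages were 2.28 ± 0.25 for Rab11fip5 and −6.68 ± 0.53 for Rab11fip1 (SE, adjusted p = 1.03e-06 and 5.87e-07). Rab11fip1 was also called against MHCII+CD11c- controls (−3.33 ± 0.48, adjusted p = 0.00232), and so was Rin3 (−1.09 ± 0.24, adjusted p = 0.0147), but no other gene of the 127. The call of Rab11fip1 held without any single library. That of Rin3 ended without LYVE1+CX3CR1+ control replicate 1 (adjusted p = 0.0595), 2 (0.0920) or 3 (0.0723), without MHCII+CD11c- control replicate 1 (0.118) or 3 (0.0614), and with surrogate variables (0.125).

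GEFs of the RIN family, which act on Rab5-type GTPases, split as well. Rin2 was at 588 ± 61.9, 353 ± 75.0 and 108 ± 60.1 CPM in controls of the LYVE1+CX3CR1+, the MHCII+CD11c- and the MHCII+CD11c+ subset, and Rin3 at 42.9 ± 4.07, 91.3 ± 24.2 and 360 ± 110 CPM (SD, n = 3 each). Both were called for LYVE1+CX3CR1+ against MHCII+CD11c+ macrophages (2.43 ± 0.30 and −3.07 ± 0.25, SE, adjusted p = 1.33e-05 and 8.51e-09). Sbf2, a DENN-domain GEF, and Plekhm1, an adaptor of Rab7 at lysosomes, were higher in LYVE1+CX3CR1+ macrophages (1.41 ± 0.19 and 1.38 ± 0.20, SE, adjusted p = 1.09e-05 and 2.07e-05). Between the MHCII+ subsets, Rab3il1, a GEF of Rab8 and Rab3, was lower in MHCII+CD11c+ macrophages (−1.33 ± 0.19), Dennd4a, a GEF of Rab10, was higher (1.36 ± 0.21), and Rab11fip5 (−2.21 ± 0.25), Rin3 (1.98 ± 0.24), Rab11fip1 (3.36 ± 0.44) and Sbf2 (−1.15 ± 0.19) were called too, with adjusted p of at most 0.000255. Of these, the call of Rab11fip1 ended with surrogate variables (adjusted p = 0.0580).

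After IC no Rab gene was called in any subset. In the LYVE1+CX3CR1+, the MHCII+CD11c- and the MHCII+CD11c+ subset, edgeR called 0 of 45 members each, beside 0.963%, 0.701% and 0.216% of all tested genes. Before adjustment, 4, 7 and 3 members had p under 0.05, beside 14.1%, 9.99% and 5.21% of all genes. DESeq2 called 0, 1 and 1 and limma voom 0, 0 and 1, in each case Rab7b. Over all genes DESeq2 called 433 of 14855, 288 of 10431 and 73 of 6890, and voom 46, 168 and 97 of 15272. With surrogate variables 3 of 45 members, Rab33b, Rab39 and Rab4a, were called in LYVE1+CX3CR1+ macrophages, beside 1206 of 15272 genes. Without MHCII+CD11c- IC replicate 1, Rab6b was called in MHCII+CD11c- macrophages, beside 132 of 15170 genes. Of the 127 machinery genes none was called after IC by edgeR, and 17, 14 and 5 had an unadjusted p under 0.05. DESeq2 called 3, 1 and 0 of them and voom 1, 1 and 0.

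Summed over all members, IC libraries lay above control libraries in both MHCII+ subsets. The sums were 3508, 3194 and 3126 CPM after IC and 2697, 2904 and 2563 in controls of MHCII+CD11c- macrophages, and 3074 and 2940 after IC and 2469, 2746 and 2400 in controls of MHCII+CD11c+ macrophages. In LYVE1+CX3CR1+ macrophages they were 3636, 3598 and 3638 after IC, inside the control range of 3290 to 3829. Markers moved beside these sums. In MHCII+CD11c- macrophages Lyve1 was at 2337, 1455 and 2458 CPM after IC beside 695, 1131 and 730 in controls, and H2-Ab1, an MHC class II gene, was at 2654, 2852 and 2821 beside 3883, 4307 and 4158. In MHCII+CD11c+ macrophages the macrophage markers summed to 3113 and 2454 CPM after IC beside 1430 to 2236 in controls, neutrophil markers to 1.18 and 0.367 beside 78.8 to 459, and mast cell markers (4 of 5 in the table) to 18.8 and 35.7 beside 0.425 to 3.40. Dendritic cell markers in that subset summed to 156 and 201 CPM after IC beside 83.0 to 147 in controls. Lyve1 was also higher after IC in LYVE1+CX3CR1+ macrophages (3469, 3272 and 4116 beside 1727, 1801 and 2338 CPM). The part of these shifts in the Rab sums was not tested. Median log2 differences of the 45 members were 0.19, 0.14 and −0.07 in the same order, beside −0.03, 0.01 and −0.14 over all genes. The first pair stayed above 0 in every alternative, and the last ranged from −0.16 to 0.07, with a median over all genes from −0.27 to −0.01.

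The sum of late endosome and lysosome members was 589, 571 and 522 CPM after IC and 392, 416 and 448 in controls of MHCII+CD11c- macrophages, 545 and 547 after IC and 376, 380 and 366 in controls of MHCII+CD11c+ macrophages, and 456, 515 and 424 after IC beside 521, 448 and 563 in LYVE1+CX3CR1+ macrophages. Groups did not overlap in the MHCII+ subsets and did in the LYVE1+CX3CR1+ subset. Exocytosis sums had the same pattern, at 662 ± 6.80 after IC and 533 ± 54.7 in MHCII+CD11c- controls, 691 ± 12.2 and 590 ± 55.6 in the MHCII+CD11c+ subset, and 621 ± 84.4 and 647 ± 23.8 in the LYVE1+CX3CR1+ subset (SD). Recycling sums did not overlap in the MHCII+ subsets either, at 537, 483 and 473 CPM after IC beside 417, 461 and 384 in MHCII+CD11c- macrophages and 456 and 465 beside 386, 425 and 365 in MHCII+CD11c+ macrophages. ER and Golgi sums overlapped in MHCII+CD11c- macrophages (549 to 664 after IC beside 552 to 560) and did not in MHCII+CD11c+ macrophages (544 and 568 beside 508 to 523). Early endosome sums were 854 ± 82.0 after IC and 700 ± 88.5 in controls of MHCII+CD11c-, 643 ± 63.01 and 554 ± 119 of MHCII+CD11c+, and 1082 ± 50.7 and 981 ± 98.3 of LYVE1+CX3CR1+ macrophages (SD, n = 3, or 2 for MHCII+CD11c+ after IC), and they overlapped in every subset. Lysosome-related organelle sums had the reverse pattern. They did not overlap in LYVE1+CX3CR1+ macrophages, at 112, 118 and 98.3 CPM after IC beside 91.0, 72.7 and 89.9. Both MHCII+ subsets overlapped, at 85.6, 52.3 and 51.5 beside 48.8, 59.9 and 43.5 (MHCII+CD11c-) and 86.4 and 62.5 beside 76.6, 81.7 and 86.2 (MHCII+CD11c+).

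**Figure D4:**
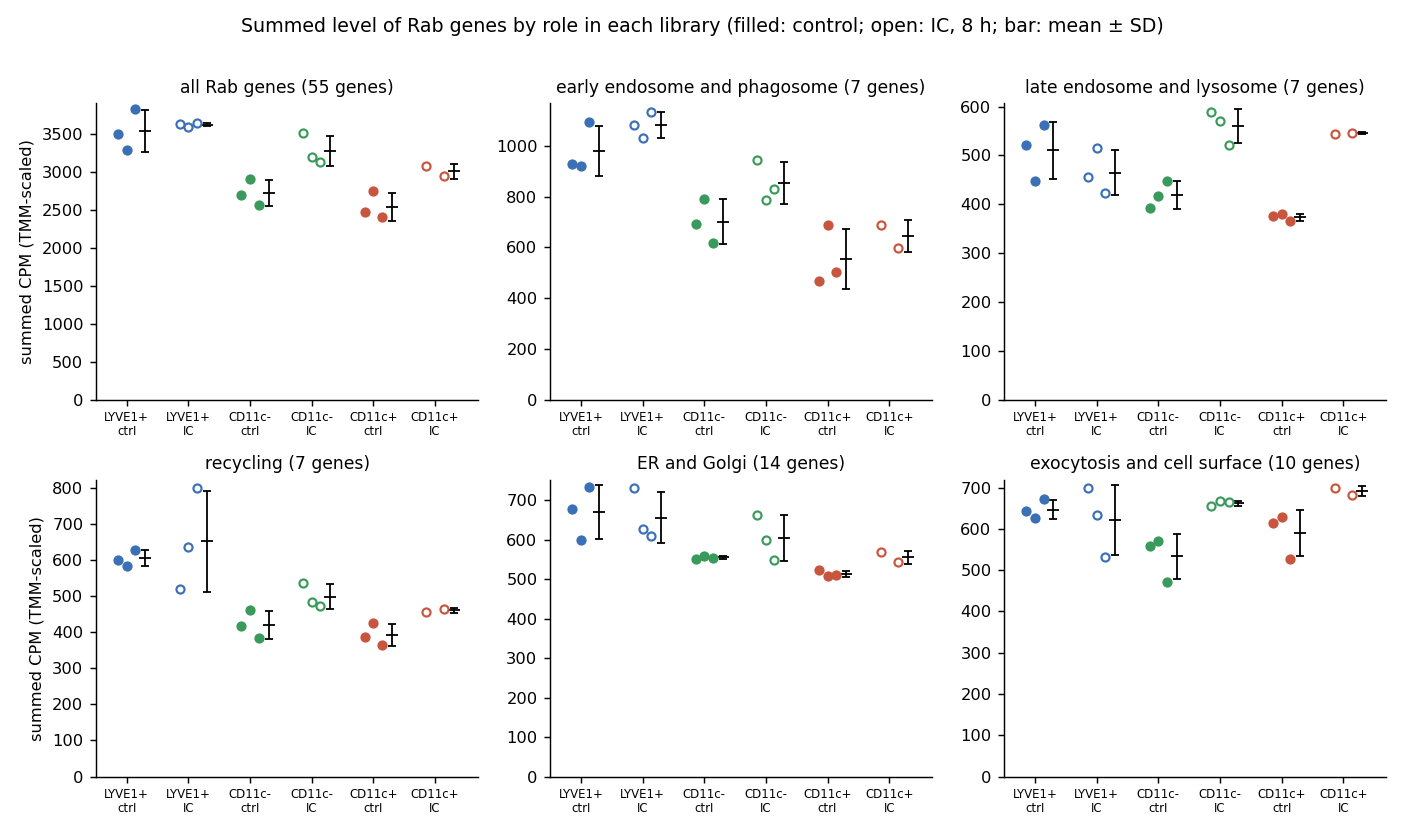
Summed CPM of all Rab genes and of 5 role groups, 1 point per library, filled for control (ctrl) and open for IC, with mean ± SD as black bars, and with subsets shortened to LYVE1+, CD11c- and CD11c+. In the late endosome panel the open points of both MHCII+ subsets (522 to 589 and 545 to 547) lie above all filled points (392 to 448 and 366 to 380).

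Rab7b and Rab7 made up most of the late endosome and lysosome sum. Rab7b was at 248, 211 and 190 CPM after IC in MHCII+CD11c- macrophages and 211 and 216 in MHCII+CD11c+ macrophages, above all controls of the same subset. It was at 147, 198 and 128 CPM after IC in LYVE1+CX3CR1+ macrophages, overlapping with controls. Log2 differences were 0.61 ± 0.17, 0.82 ± 0.19 and −0.23 ± 0.17 (SE, adjusted p = 0.124, 0.0919 and 0.597), so edgeR did not call them. In MHCII+CD11c+ macrophages DESeq2 (adjusted p = 0.0137) and voom (0.0196) did, and in MHCII+CD11c- macrophages DESeq2 did (0.0374). Over all alternatives the adjusted p ranged from 0.0137 to 1 and from 0.0374 to 0.325 in these subsets. Neutrophil markers summed to 0.367 and 1.18 CPM in the MHCII+CD11c+ IC libraries beside 78.8 to 459 in their controls, and their part in the difference was not tested. Without 1 library it lay between 0.78 and 0.87 in that subset.

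Rab7 was at 309, 316 and 307 CPM after IC in MHCII+CD11c-, 301 and 300 in MHCII+CD11c+ and 273, 281 and 286 in LYVE1+CX3CR1+ macrophages. Its log2 differences were 0.34 ± 0.15, 0.46 ± 0.17 and −0.02 ± 0.15 (SE, adjusted p = 0.457, 0.734 and 0.992), again with no overlap in the first pair. Differences between the responses of subsets were tested as interactions. edgeR called 0 of 45 members in each of the 3, beside 0.0262% (LYVE1+CX3CR1+ minus MHCII+CD11c-), 0.0327% (LYVE1+CX3CR1+ minus MHCII+CD11c+) and 0.0% (MHCII+CD11c+ minus MHCII+CD11c-) of all genes, and DESeq2 and voom called none of the members either. Before adjustment, 3, 3 and 0 members had p under 0.05, beside 7.54%, 8.02% and 3.25%. For Rab7b the interaction of LYVE1+CX3CR1+ and MHCII+CD11c+ macrophages was −1.06 ± 0.26 (SE, adjusted p = 0.184).

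Among early endosome members, 6 of 7 log2 differences were above 0 in each subset, with a range from −0.49 (Rab5b) to 0.83 (Rab20) in MHCII+CD11c- macrophages. Over all 15272 genes, 6155, 7298 and 7797 were above 0 in the LYVE1+CX3CR1+, the MHCII+CD11c- and the MHCII+CD11c+ subset. Among exocytosis members 3, 5 and 6 of 8 were above 0 in that order, with a range from −0.48 to 0.66 (Rab10) in MHCII+CD11c- macrophages. Rab5c was at 270, 239 and 289 CPM after IC in MHCII+CD11c- macrophages, above its controls (0.61 ± 0.18, SE, adjusted p = 0.156), and at 189 and 176 in MHCII+CD11c+ macrophages (0.37 ± 0.20, adjusted p = 1). Rab10 was at 178, 161 and 179 CPM after IC in MHCII+CD11c- macrophages, above its controls (0.66 ± 0.21, SE, adjusted p = 0.197). Rab20, a GTPase of phagosome maturation, had positive values in all subsets, at 0.93 ± 0.43, 0.83 ± 0.43 and 1.21 ± 0.47 for the LYVE1+CX3CR1+, the MHCII+CD11c- and the MHCII+CD11c+ subset (SE, adjusted p = 0.320, 0.539 and 0.747), from control means of 11.7, 13.8 and 8.43 CPM. An opposite-strand gene covers 25.6% of the exon length of Rab20, and whether counting used the strand is not given in the sources used here.

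**Figure D5:**
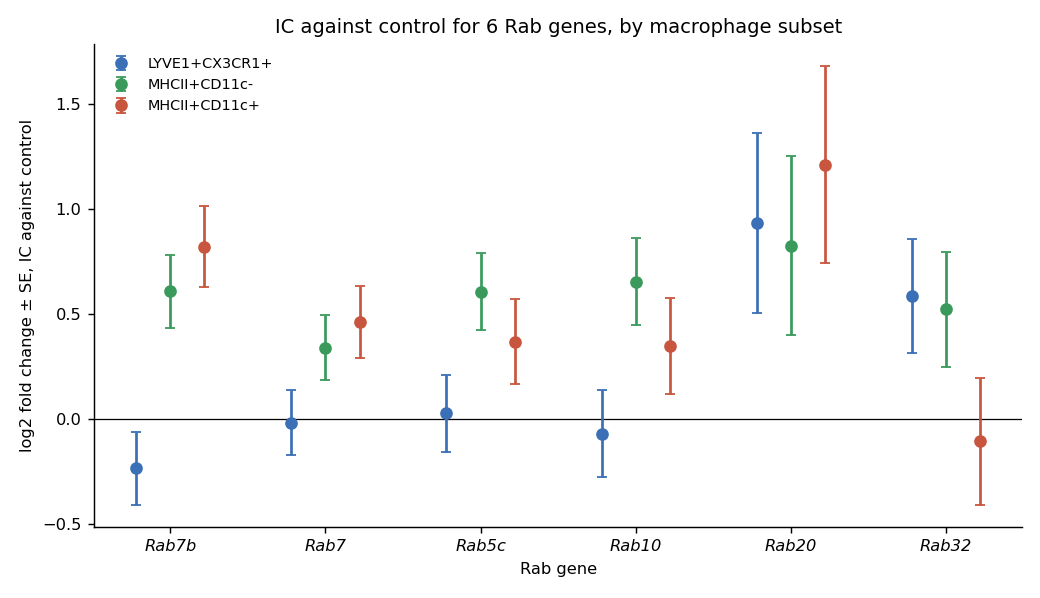
Log2 fold change ± SE between IC and control libraries for 6 Rab genes, chosen after their values were seen, in LYVE1+CX3CR1+ (3 against 3 libraries), MHCII+CD11c- (3 against 3) and MHCII+CD11c+ macrophages (2 against 3). None was called, and for Rab7b the LYVE1+CX3CR1+ value (−0.23) lies below those of the MHCII+ subsets (0.61 and 0.82).

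The members that follow were chosen after their values were seen, as was Rab20, and none was called. In LYVE1+CX3CR1+ macrophages the largest differences of tested members with group means above 5 CPM in both groups belonged to Rab33b, an ER and Golgi GTPase tied to autophagy (12.5 ± 3.42 CPM in controls and 5.75 ± 1.74 after IC, SD, n = 3, adjusted p = 0.3695), and Rab20. Rab32 was at 86.3, 100.4 and 86.7 CPM after IC beside 68.3, 46.8 and 66.6 in controls of this subset (0.59 ± 0.27, SE, adjusted p = 0.32), without overlap. Rab22a, an early endosome GTPase related to Rab31, was at 55.0, 64.2 and 29.9 CPM after IC beside 75.6, 69.5 and 74.1 (−0.55 ± 0.25, SE, adjusted p = 0.322). Rab26, Rab30, Rab38, Rab44 and Rab4a reached 0 CPM in several libraries, and their fitted log2 differences are not given.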

How the data were processed

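The authors sorted synovial macrophages, prepared stranded low-input libraries from 5 ng of total RNA, and, per the paper's methods and the labels, trimmed reads with Trim Galore, checked them with FastQC, aligned them with HISAT2 to mm10, obtained gene counts with featureCounts (Rsubread), and used DESeq2 and sva. They deposited raw counts per gene, used here as deposited. Versions of these tools, the annotation, the use of strand and the treatment of multimapping reads are not given in the sources used here. In the count table, 1 column matched no sample and was left out. Library depths and the floor of 3 counts they set are given with the results and cover counting error only.

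Genes were filtered with filterByExpr (minimum count 10), libraries scaled by TMM, and all 17 libraries fitted together with 1 mean per group by edgeR 4.0.16 (glmQLFit with robust estimation, glmQLFTest, R 4.3.3). P-values were two-sided and adjusted by Benjamini-Hochberg over all tested genes, with calls at an adjusted p under 0.05. Interactions compared IC effects between subsets. The study counts mice for its parallel wild-type libraries and separate animals are not stated for these, so p-values measure the spread between these libraries. Alternatives were DESeq2 1.42.0, limma 3.58.1 voom with quality weights, DESeq2 size factors, a length offset, no filter, sva 3.50.0 surrogate variables, the replicate number as a block, only the groups compared, and leaving out each library. Named genes were the members called and the 5 highest per kilobase, plus the leading machinery genes by p-value, while close isoforms of called members and other genes were added after their values were seen. Members and lists were chosen with earlier results of these data known. The fit was tested on simulated data. Gene coordinates are from GENCODE M21 (GRCm38, mm10), where 97.5% of symbols had an entry, and promoters from RefSeq (GRCm38.p6).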

Additional observations from a re-analysis of the deposited data

How the results depend on the processing

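Counts of called Rab genes stayed within 1.5 times of those reported, with these exceptions. For IC in LYVE1+CX3CR1+ macrophages, surrogate variables gave 3 calls in place of 0, while calls over all 15272 genes went from 147 to 1206. For IC in MHCII+CD11c- macrophages DESeq2 gave 1, and for IC in MHCII+CD11c+ macrophages DESeq2 gave 1 and voom gave 1. Over all genes these called 288 of 10431, 73 of 6890 and 97 of 15272. Between LYVE1+CX3CR1+ and MHCII+CD11c- macrophages (1 call), DESeq2 gave 2, no filter 2, only the groups compared 2, voom 5, and surrogate variables 0. Over all genes these called 492 of 13968, 257 of 22859, 494 of 12610, 977 of 15272 and 188 of 15272, beside 238 of 15272 in the main fit. Between the MHCII+ subsets (1 call), DESeq2 gave 4, voom 2, and no filter, surrogate variables and only the groups compared 0 each. Over all genes these called 1948 of 14855, 1733 of 15272, 1252 of 22859, 782 of 15272 and 956 of 12384, beside 1323 of 15272 in the main fit. The cause was not tested. Leaving out 1 library gave 6 to 10 calls for LYVE1+CX3CR1+ against MHCII+CD11c+ macrophages, beside 1591 to 2481 over all genes. It gave 0 to 2 for LYVE1+CX3CR1+ against MHCII+CD11c- (96 to 411 over all genes) and 0 to 3 between the MHCII+ subsets (785 to 1450). For IC it gave 0 to 1 in MHCII+CD11c- macrophages (29 to 173) and 0 in the other subsets, and it gave 0 for the interactions. No direction reversed among the called members and called machinery genes, and the signs of all other named genes were not checked. The median log2 difference of members after IC in LYVE1+CX3CR1+ macrophages did change sign, from −0.15 to 0.0333 without 1 library.

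With the replicate number as a block, LYVE1+CX3CR1+ against MHCII+CD11c- macrophages had 3 calls, LYVE1+CX3CR1+ against MHCII+CD11c+ 12 and the MHCII+ subsets 1, and IC 0. Over all 15272 genes the calls between subsets were 376, 2558 and 1473 in that order. Correlations of deviations between libraries with the same number ranged from −0.153 to 0.286 and passed 0.1 in 2 of 17 pairs. Between MHCII+CD11c+ and MHCII+CD11c- controls they were 0.0986, 0.286 and 0.0796, each above the highest with another number (0.0511, −0.132 and 0.0369). Between LYVE1+CX3CR1+ and MHCII+CD11c- controls, replicates 1 and 3 went the other way (0.00738 and 0.0468, beside 0.0398 and 0.0672). Whether the numbers pair control libraries could not be settled from these values.

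With 2 or 3 libraries a group, low members such as Rab26, Rab38 and Rab44 rested on a few counts, and differences in them were not detectable at this depth. Reads shared with other genes concern mainly Rab43 (74.5% of its 50-base words) and Rab4b (58.1%).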
